A study of Mus musculus with 142 samples.

Results

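Control brainstem cells and control dorsal telencephalon cells were compared 1 day after the switch to differentiation medium, in all 17 libraries of the 142 in the series whose titles name a control culture of either region at 1 day. Of these, 8 were brainstem wells and 9 were telencephalon wells, and each region had 3 cultures, numbered 38, 41 and 42. Brainstem cells were at passage 7, 5 and 6 in these 3 cultures. Telencephalon cells were at passage 3, at passage 2 in 2 wells and passage 4 in the other, and at passage 2. Oligodendrocyte precursor cells (OPCs) were immunopanned with an antibody to PDGFRa from pooled AMGFAP-Cre;K27M litters (as the labels name the line, hGFAP-Cre in the study's methods) at P5 to P7, after depletion on a BSL1-coated dish. Dorsal telencephalon was cortex, corpus callosum and hippocampus. The Cre is driven by the human GFAP promoter and is active in neural stem and progenitor cells. Controls of both regions were littermates of pups that express K27M from the H3f3a locus, and the study's single-cell methods describe littermate controls as lacking Cre, with H3f3a expressed from a single allele because of the loxP-STOP-loxP cassette. The alleles of the control pups behind these cultures are not given separately in the sources used here. All wells had grown in proliferation medium with forskolin, CNTF, neurotrophin-3 and PDGF, and then spent 1 day with forskolin, CNTF and thyroid hormone, without PDGF or neurotrophin-3. Because litters were pooled and wells of a culture share its cells, the replicate was the culture (n = 3 per region), and wells were summed within each culture.

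OPCs divide in response to PDGF and leave the cell cycle when it is withdrawn. They then pass through a committed stage marked by GPR17, BMP4 and ENPP6 before they make the proteins and lipids of myelin. Position along the neural tube is written in transcription factors: HOX proteins mark the hindbrain and spinal cord, and EMX2 marks the dorsal telencephalon. The comparison asked how cells of both origins differ early in differentiation.

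Depth was 27.2 to 60.7 M read pairs per library, as summed over genes, and 22506 to 25478 genes had a count. Region could not be told apart from sequencing batch, because batches 3 and 4 held brainstem wells alone and batches 1 and 2 telencephalon wells alone. Passage did not overlap either, with means of 6 in brainstem wells and 2.56 in telencephalon wells. The first principal component (53.3% of the variance of the 1000 most variable genes) separated the regions. Telencephalon culture 42 (41.7 to 46.9) and brainstem culture 38 (-41.5 to -46.7) lay at its opposite ends. Telencephalon culture 42 also stood apart in myelin genes. The first brainstem well of culture 42 had 1.98% nuclear ribosomal RNA, against 0.176% or less in the other brainstem wells. The labelled cell type was checked by its markers: OPC markers summed to 3351 to 4165 CPM (read pairs scaled to library size) in brainstem wells and 2417 to 3300 CPM in telencephalon wells. Microglial markers summed to at most 0.188 CPM in brainstem wells and 0.529 CPM in telencephalon wells, with Aif1 at 0 in every brainstem well. In bulk RNA, fewer cells of a type and less RNA per cell cannot be told apart. The knock-in gene H3f3a averaged 275 ± 31.7 CPM in brainstem cultures and 315 ± 25.1 CPM in telencephalon cultures (SD, n = 3 each; log2 fold change -0.18, SE 0.14, adjusted p 0.427).

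The promoter stretches of 4 genes are shown as examples from the position and myelin lists described below. Each is the 250 bases before the transcription start from RefSeq (GRCm38.p6), written along the gene's own strand, with CG dinucleotides in capitals. Hoxa5 (chr6:52204588-52204837, minus strand) and Irx2 (chr13:72628570-72628819, plus strand) were higher in brainstem cultures. Emx2 (chr19:59458440-59458689, plus strand) and Mag, a myelin adhesion protein (chr7:30914864-30915113, minus strand), were lower.
Hoxa5: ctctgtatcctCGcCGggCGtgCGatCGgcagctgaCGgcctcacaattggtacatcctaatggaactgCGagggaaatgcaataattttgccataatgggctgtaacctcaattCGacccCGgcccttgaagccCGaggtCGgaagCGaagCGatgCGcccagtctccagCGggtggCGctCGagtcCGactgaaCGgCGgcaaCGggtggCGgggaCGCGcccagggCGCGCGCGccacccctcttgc
Irx2: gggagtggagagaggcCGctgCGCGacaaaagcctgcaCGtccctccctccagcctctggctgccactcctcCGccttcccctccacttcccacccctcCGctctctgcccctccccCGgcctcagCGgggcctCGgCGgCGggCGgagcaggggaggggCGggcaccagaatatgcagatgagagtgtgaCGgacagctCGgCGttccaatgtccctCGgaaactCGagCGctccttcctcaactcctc
Emx2: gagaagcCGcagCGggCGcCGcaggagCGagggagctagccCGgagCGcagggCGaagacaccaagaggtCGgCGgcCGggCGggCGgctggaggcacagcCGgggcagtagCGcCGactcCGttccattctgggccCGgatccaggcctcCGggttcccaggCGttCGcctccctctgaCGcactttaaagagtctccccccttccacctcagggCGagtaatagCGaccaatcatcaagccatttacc
Mag: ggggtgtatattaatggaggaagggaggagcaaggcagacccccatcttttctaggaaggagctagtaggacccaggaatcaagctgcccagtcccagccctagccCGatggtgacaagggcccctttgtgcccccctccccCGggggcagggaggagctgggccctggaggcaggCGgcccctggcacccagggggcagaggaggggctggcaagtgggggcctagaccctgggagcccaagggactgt
The stretches held 28 (Hoxa5), 19 (Irx2), 24 (Emx2) and 3 (Mag) CG dinucleotides. Hoxa5 and Mag do not stand for their lists: the median was 12 over the 9 tested Hox genes with a stretch, of which Hoxa5 was the highest, and also 12 over the 26 tested genes of mature oligodendrocytes and myelin, among which Cnp held 13. The median over the 11859 tested genes that had such a stretch was 15, and 71.6% held at least 10. Among the 492 genes with a stretch that passed the test as higher in brainstem the share was 63.8%, and among the 561 lower in brainstem it was 63.3%. These counts describe the letters only.

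At an adjusted p under 0.05 (edgeR's quasi-likelihood test on culture sums), 1922 of 19093 genes tested differed by region, which is 10.1%. Of these, 1133 were higher in brainstem cultures (5.93%) and 789 were lower (4.13%), and 905 and 486 of them by at least 2-fold. The median log2 fold change over all genes was -0.007. Positive values mean higher in brainstem throughout. The 3 culture values of one region all lay above the 3 of the other for 40.9% of genes tested, with brainstem higher for 19.7% and lower for 21.2%. The count rested on all 3 cultures: without culture 38, 41 or 42 it was 610, 358 and 607 genes higher and 459, 248 and 482 lower. Without the first brainstem well of culture 42 it was 566 higher and 546 lower. Each count of list members below stands against 5.93% of all genes higher and 4.13% lower in brainstem. The lists and members were chosen with earlier results of these data known. The counts beside these shares therefore describe the lists and do not test them. Lists share members, so a gene can be counted in several of them.

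Of the 39 Hox genes, 14 passed the filter on low counts, 7 in the Hoxa cluster, 4 in the Hoxb and 3 in the Hoxd. They passed it through the brainstem libraries, which fixed their direction, so their number is a description. The other 25, the whole Hoxc cluster among them, were too low to test.
Hoxa2, the anterior-most active Hox gene of the hindbrain, measured 7.4, 9.69 and 9.53 CPM in brainstem cultures 38, 41 and 42. It had 1 read pair in the telencephalon wells together, a ratio of 3700 with a 95% exact counting interval of 663 to 146000. Levels were alike in the 3 brainstem cultures. Hoxa4 measured 3.44, 4.29 and 3.5 CPM in the brainstem cultures, against 0 in each telencephalon culture, at least 524-fold higher (a floor of 3 read pairs over the group). Hoxb2 had at least a 535-fold and Hoxb3 at least a 352-fold higher level by the same floor.
Hox genes of higher number, which mark more caudal levels, differed between the brainstem cultures themselves. Hoxa5 (ENSMUSG00000038253.6, chromosome 6, 52201754 to 52204587) measured 17.9, 5.1 and 8.4 CPM in brainstem cultures 38, 41 and 42, against 0, 0.00794 and 0.0132 CPM in telencephalon cultures. With 3 read pairs in the telencephalon wells together, its ratio was 1580, with a 95% exact counting interval of 541 to 7680. Hoxa7 measured 26.1, 1.12 and 15.2 CPM in the brainstem cultures, against 0.0137, 0.0159 and 0.0198 CPM. Hoxd8 measured 13, 0.453 and 8.87 CPM in the brainstem cultures, against 0.0137, 0.00794 and 0.0066 CPM. Culture 41 was lowest in each of the 3. Every brainstem culture was above every telencephalon culture, as the rule that named these 3 genes required.

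Of 27 listed regulators of hindbrain and midbrain identity, 17 passed the filter on low counts. Of these 17, 11 were higher in brainstem cultures, none was lower and 6 did not pass the test (median 2.05). Members near 0 in telencephalon cultures, such as Pax3, passed that filter through the brainstem cultures. This fixed their direction, so their number is a description. Irx2 (ENSMUSG00000001504.10, chromosome 13, 72628820 to 72634198), an Iroquois homeobox gene of posterior neural territory, measured 29.6, 27.3 and 22.1 CPM in brainstem cultures and 0.685, 0.747 and 0.211 CPM in telencephalon cultures (log2 fold change 5.74, SE 0.34, adjusted p 0.00478). Irx1 (4.15, SE 0.25) and Irx5 (5.5, SE 0.24) of the same family rose likewise. Pax3, a dorsal neural tube regulator, averaged 8.91 ± 1.27 CPM in brainstem and 0.0495 ± 0.0741 CPM in telencephalon cultures (7.85, SE 0.75, adjusted p 0.0092). The midbrain and rostral hindbrain genes differed less: En2 averaged 35.9 ± 6.41 CPM in brainstem and 19.6 ± 4.22 CPM in telencephalon cultures (0.89, SE 0.16, adjusted p 0.0301). En1 measured 1.33, 0.452 and 3.63 CPM in the brainstem cultures and at most 0.205 CPM in telencephalon cultures (2.97, SE 0.69, adjusted p 0.048).

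Of 16 tested regulators and markers of telencephalic identity, 6 were lower in brainstem cultures, 3 were higher and 7 did not pass (median -0.49). Members near 0 in brainstem cultures, such as Emx2, passed the filter on low counts through the telencephalon cultures, which fixed their direction. Emx2, a regulator of the dorsal telencephalon, had 3 read pairs in brainstem wells, against 3.5, 3.66 and 2.67 CPM in telencephalon cultures, 391 times the brainstem level, with a 95% exact counting interval of 134 to 1900. Nrn1 (-8.38, SE 0.54), Gsx2 (-4.43, SE 0.49), Dlx2 (-4.69, SE 0.64) and Otx1 (-3.5, SE 0.67) were also lower in brainstem cultures.
The 3 members that were higher in brainstem were Nr2f2 (2.08, SE 0.26), Bcl11b (1.3, SE 0.21) and Neurod1 (2.69, SE 0.49), transcription factors that cells outside the telencephalon also use. Without culture 41 none of the members was called higher. Lhx2, a patterning gene of the cortex, did not separate the regions: it measured 5.81, 5.44 and 7.45 CPM in brainstem cultures and 6.48, 5.71 and 4.75 CPM in telencephalon cultures (0.15, SE 0.22, adjusted p 0.675).

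**Figure D1:**
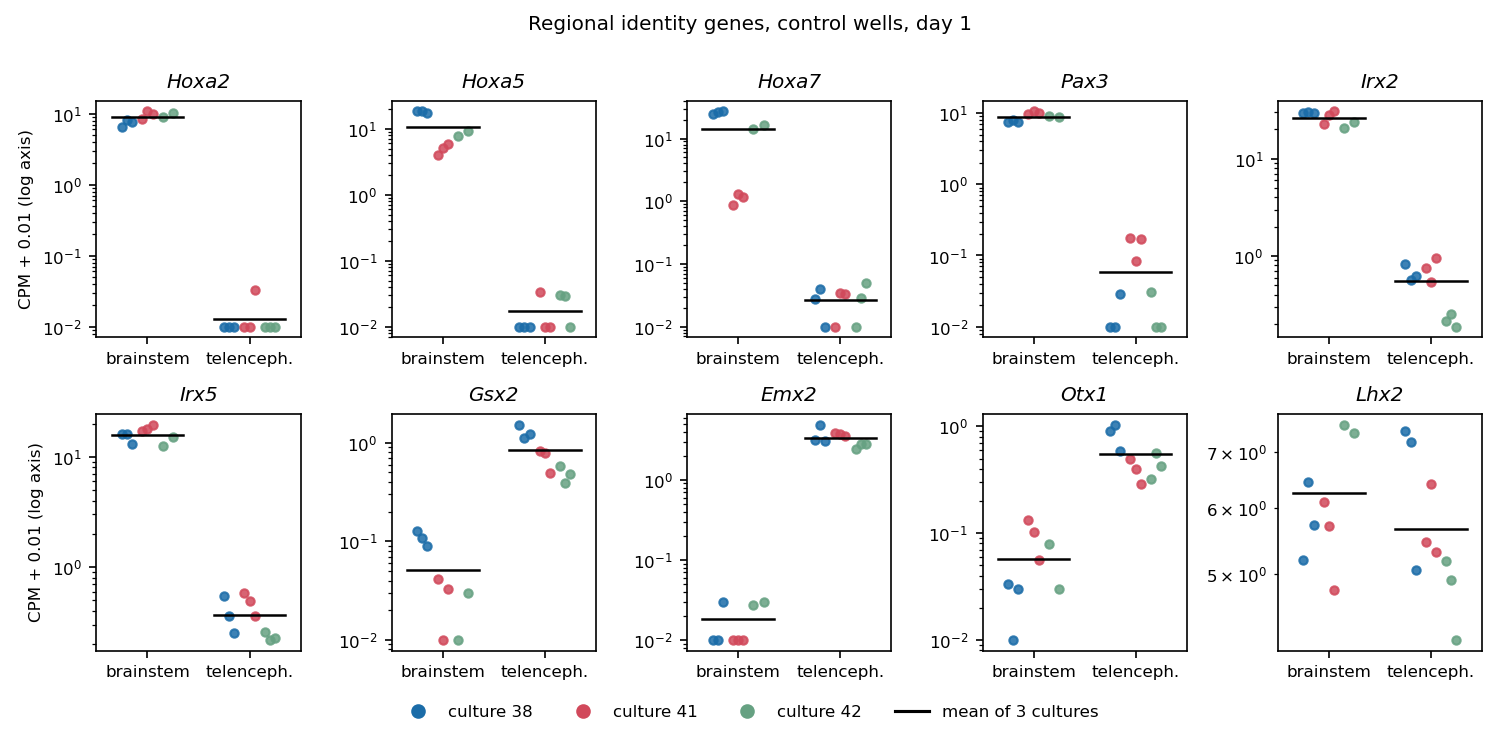
Level of 10 position genes in each control well at day 1, as CPM plus 0.01 on log axes, with brainstem wells on the left and telencephalon wells on the right of each panel. Points are wells coloured by culture and bars are means of the 3 cultures. Hoxa7 in brainstem culture 41 averaged 1.12 CPM, below cultures 38 and 42 at 26.1 and 15.2 CPM, and Lhx2 overlapped between regions.

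Among markers of the OPC state, 7 of 27 tested members rose in brainstem cultures, 4 fell and 16 did not pass (median 0.61), against 5.93% and 4.13% of all genes. Pdgfra (ENSMUSG00000029231.15, chromosome 5, 75152292 to 75198215), the PDGF receptor used to isolate the cells, measured 814, 907 and 788 CPM in brainstem cultures and 589, 599 and 476 CPM in telencephalon cultures (0.61, SE 0.14, adjusted p 0.0488). The groups did not overlap. The call needed all 3 cultures: the adjusted p was 0.0604 without culture 38, 0.216 without 41 and 0.173 without 42, with the fold change between 0.56 and 0.66. It was also lost without the telencephalon well of passage 4 (0.069) or the first brainstem well of culture 42 (0.0637). Cspg5, a neural proteoglycan, averaged 420 ± 43.2 CPM in brainstem and 176 ± 24 CPM in telencephalon cultures (1.28, SE 0.16, adjusted p 0.0144). Pcdh15, a protocadherin enriched in OPCs, measured 436, 339 and 399 CPM in brainstem cultures and 204, 139 and 69.8 CPM in telencephalon cultures (1.64, SE 0.28, adjusted p 0.0266, or 0.0671 without culture 41). Megf11 (2.47, SE 0.31), C1ql1 (2.07, SE 0.33), Etv5 (1.27, SE 0.2) and Cspg4, which encodes NG2 (1.07, SE 0.19), rose too. Without culture 41 the number that rose was 4. The members that fell were Sox2, Matn4, Id4 and Emid1. Sox2, a progenitor transcription factor, averaged 215 ± 26.7 CPM in brainstem and 376 ± 14.5 CPM in telencephalon cultures (-0.8, SE 0.15, adjusted p 0.0295).

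Of 46 cell cycle genes, 3 rose in brainstem cultures, none fell and 43 did not pass (median 0.51), against 5.93% of all genes higher, so the count is near that of all genes. Without culture 41 the number that rose was 11. Fold changes were positive for all 16 tested genes of replication licensing and S phase, of which 1 passed, and for 12 of 16 mitotic genes, of which none passed. Ccnd1 (ENSMUSG00000070348.5, chromosome 7, 144929931 to 144939925), the G1 cyclin D1, measured 969, 396 and 606 CPM in brainstem cultures 38, 41 and 42, against 72.3, 175 and 125 CPM in telencephalon cultures (2.4, SE 0.49, adjusted p 0.0367). Its culture values did not overlap between regions, which the rule that named it among abundant genes required. Cdkn2a, which encodes cell cycle inhibitors, rose as well, at 16.9, 8.5 and 15.6 CPM in brainstem cultures and 3.31, 4.92 and 2.04 CPM in telencephalon cultures (2.05, SE 0.42, adjusted p 0.0376). Cdt1, a replication licensing factor, averaged 21.3 ± 0.252 CPM in brainstem and 10.5 ± 4.57 CPM in telencephalon cultures (1.12, SE 0.24, adjusted p 0.0427).
Mki67, the proliferation marker, measured 557, 665 and 319 CPM in brainstem cultures and 342, 242 and 285 CPM in telencephalon cultures (0.79, SE 0.26, adjusted p 0.105). The groups overlapped through brainstem culture 42, and without culture 42 the gene passed (1.11, adjusted p 0.0201). Ccnb1, cyclin B1, measured 112, 172 and 36.2 CPM in brainstem cultures and 108, 86.4 and 119 CPM in telencephalon cultures (-0.19, SE 0.5, adjusted p 0.828), with the lowest value in brainstem culture 42. Lmnb1, a nuclear lamina gene of cycling cells, averaged 104 ± 21.6 CPM in brainstem and 63 ± 6.08 CPM in telencephalon cultures (0.72, SE 0.15, adjusted p 0.0357), and did not pass without culture 38 (0.0694) or 41 (0.147). Mki67, Ccnb1, Lmnb1, Pdgfra, Gpr17, Fyn and Cnp were chosen for display on these samples, so their direction is not independent evidence.

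Of 27 tested genes of the committed and newly formed oligodendrocyte, 11 fell in brainstem cultures, none rose and 16 did not pass (median -0.95), against 4.13% of all genes. Enpp6 (ENSMUSG00000038173.15, chromosome 8, 46986887 to 47096762), a choline phosphodiesterase of newly formed oligodendrocytes, measured 80.4, 215 and 234 CPM in brainstem cultures and 466, 636 and 1140 CPM in telencephalon cultures (-2.12, SE 0.22, adjusted p 0.00954). Bmp4 (ENSMUSG00000021835.15, chromosome 14, 46383520 to 46390669), a ligand that committed precursors express, measured 3.53, 4.41 and 11.4 CPM in brainstem cultures and 57.3, 70.7 and 50.2 CPM in telencephalon cultures (-3.38, SE 0.41, adjusted p 0.0124). Both genes were named by rules that required the culture values not to overlap between regions. For Bmp4 the 3 telencephalon cultures lay close together. Fyn, a kinase that acts early in myelination, averaged 430 ± 138 CPM in brainstem and 949 ± 147 CPM in telencephalon cultures (-1.17, SE 0.17, adjusted p 0.0192, or 0.0629 without culture 41). Chn2 (-2.05, SE 0.16), Tmem163 (-2.67, SE 0.41), Itpr2 (-1.45, SE 0.14) and Sirt2 (-1.39, SE 0.14) fell as well. Gpr17, a receptor of the committed stage, did not pass: it measured 655, 1602 and 1587 CPM in brainstem cultures and 2436, 2084 and 1508 CPM in telencephalon cultures (-0.71, SE 0.37, adjusted p 0.252). Brainstem culture 38 was far below the others, and the groups overlapped at culture 42.

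Of 35 tested genes of the mature oligodendrocyte and myelin, 14 fell in brainstem cultures, 1 rose and 20 did not pass (median -1.13). Without culture 41 the number that fell was 9. Cnp, a myelin enzyme, measured 537, 800 and 1110 CPM in brainstem cultures and 1807, 2128 and 3683 CPM in telencephalon cultures (-1.62, SE 0.17, adjusted p 0.00954). Within each region culture 38 was lowest and culture 42 highest for Cnp.
Mbp (ENSMUSG00000041607.17, chromosome 18, 82475146 to 82585637), myelin basic protein, measured 44.5, 151 and 121 CPM in brainstem cultures and 334, 468 and 3645 CPM in telencephalon cultures (-3.11, SE 0.64, adjusted p 0.0376). Telencephalon culture 42 was by far the highest. Without culture 42 the log2 fold change was -2.24 and still passed. It did not pass without culture 38 (adjusted p 0.0898) or without the telencephalon well of passage 4 (0.0525). Mag, which binds the axon from the myelin side, measured 33.5, 65.5 and 74.8 CPM in brainstem cultures and 93.6, 231 and 831 CPM in telencephalon cultures (-2.23, SE 0.41, adjusted p 0.0299, or 0.0647 without culture 41). Mobp, a later myelin gene, reached 41.8 CPM in telencephalon culture 42 and at most 0.834 CPM in each other culture of either region (adjusted p 0.502). The member that rose was Grm3, a glutamate receptor gene that other neural cells also use, at 14, 11.2 and 10.9 CPM in brainstem cultures and 2.47, 1.32 and 1.46 CPM in telencephalon cultures (2.84, SE 0.21, adjusted p 0.00496).

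Among 19 tested transcription factors of the lineage, 5 fell in brainstem cultures and 3 rose. Myrf, the driver of myelin gene expression (-0.95, SE 0.21), Nkx6-2 (-2.05, SE 0.22), St18 (-1.39, SE 0.21), Zfp488 (-0.77, SE 0.17) and Tcf7l2 (-0.75, SE 0.17) fell. The 3 that rose were the nuclear factor I genes Nfia (1.28, SE 0.17), Nfib (1.01, SE 0.18) and Nfix (1.47, SE 0.28). None rose without culture 41, and 2 fell without culture 38 or 41. Olig2, which defines the lineage, averaged 463 ± 33.7 CPM in brainstem and 468 ± 27.8 CPM in telencephalon cultures (adjusted p 0.994).

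**Figure D2:**
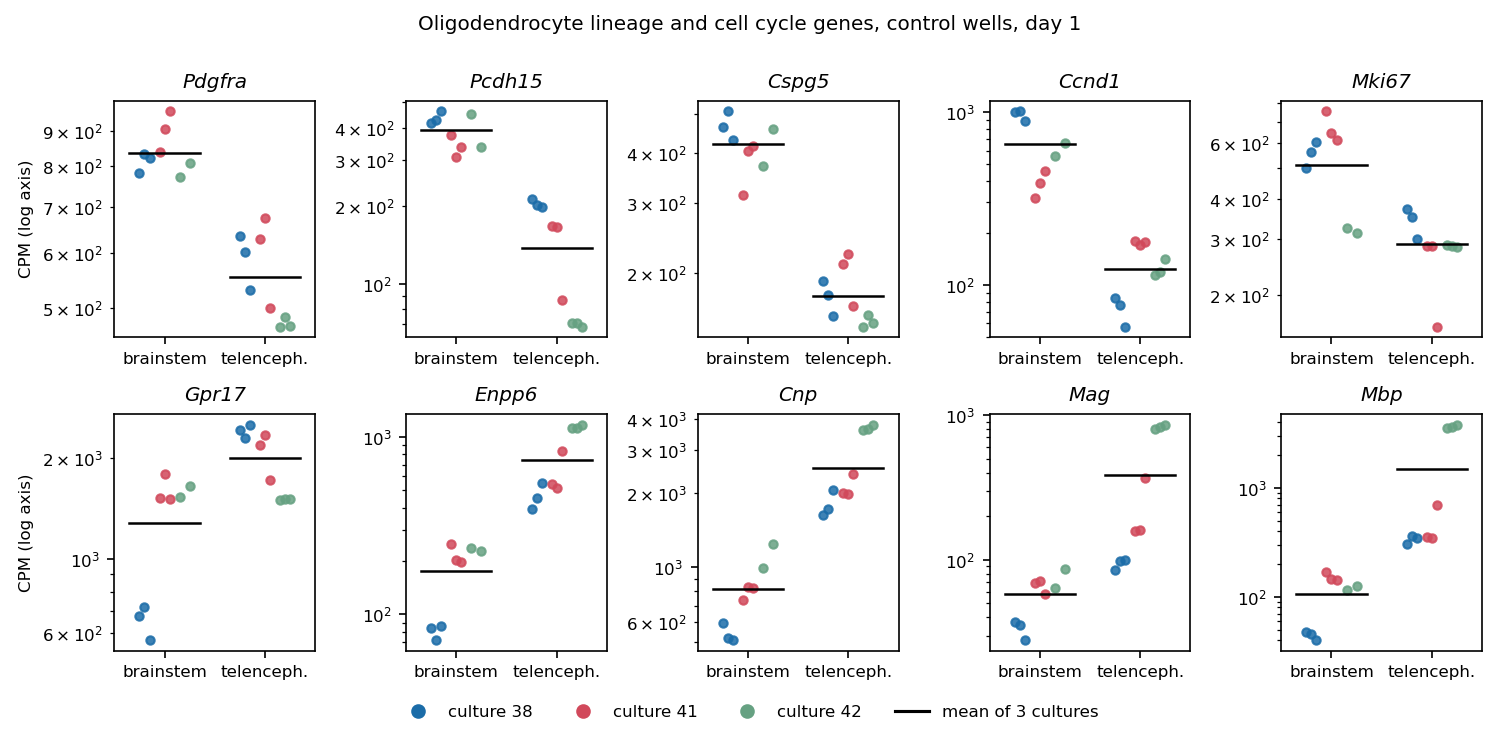
Level of 10 lineage and cell cycle genes in each control well at day 1, as CPM on log axes, with brainstem wells on the left and telencephalon wells on the right of each panel. Points are wells coloured by culture and bars are means of the 3 cultures. Pcdh15 and Ccnd1 sat higher and Enpp6, Cnp, Mag and Mbp lower in brainstem cultures without overlap, which the naming rule required of all but Cnp. Mki67 and Gpr17 overlapped, and telencephalon culture 42 reached 3645 CPM of Mbp.

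Myelin is rich in cholesterol and galactolipids. Of 36 tested genes of cholesterol synthesis and its regulation, 8 fell in brainstem cultures and none rose (median -0.46). Fdps, which makes farnesyl diphosphate, averaged 297 ± 26.3 CPM in brainstem and 509 ± 79.4 CPM in telencephalon cultures (-0.76, SE 0.15, adjusted p 0.0356). Hmgcs1, an early enzyme of the pathway, averaged 1313 ± 291 CPM in brainstem and 2091 ± 286 CPM in telencephalon cultures (-0.67, SE 0.16, adjusted p 0.0499). Without culture 38 the number of cholesterol genes that fell was 1, without 41 it was 2, without 42 it was 5 and without the first brainstem well of culture 42 it was 2. Of 23 tested genes of galactolipid and long chain lipid synthesis, 7 fell and none rose (median -0.5), or 3 without culture 41. This list shares Ugt8a, Fa2h, Gal3st1 and Aspa with the list of mature oligodendrocytes and myelin. Ugt8a, which makes the galactolipids of myelin, averaged 311 ± 82 CPM in brainstem and 967 ± 487 CPM in telencephalon cultures (-1.54, SE 0.19, adjusted p 0.0139).

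The medium supplied thyroid hormone, forskolin, which raises cAMP, and CNTF. Of 22 tested thyroid hormone genes, 2 rose and 3 fell in brainstem cultures, against 5.93% and 4.13% of all genes. Thra, the main receptor gene, measured 87.9, 154 and 161 CPM in brainstem cultures and 199, 258 and 457 CPM in telencephalon cultures (-1.13, SE 0.19, adjusted p 0.0248). Dio2, which activates the hormone, averaged 0.327 ± 0.171 CPM in brainstem and 3.19 ± 1.29 CPM in telencephalon cultures (-3.27, SE 0.35, adjusted p 0.00954). The targets Sema7a (1.63, SE 0.26) and Gas7 (1.26, SE 0.28) rose and Cadm2 (-0.72, SE 0.15) fell. The hormone targets Klf9 (-0.32, adjusted p 0.42) and Hr (-0.22, adjusted p 0.457) did not pass. Of 29 tested genes of the cAMP and CNTF response, 3 rose and none fell. They were Adcy8, an adenylyl cyclase, at 20.1, 24.1 and 15.8 CPM in brainstem cultures and 2.86, 1.92 and 2.31 CPM in telencephalon cultures (3.09, SE 0.24, adjusted p 0.00593), Cntfr, the CNTF receptor (1.77, SE 0.26), and Bcl3 (1.48, SE 0.25). Without culture 41 the number that rose was 1.

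Signalling pathways were mixed, and their counts fell when a culture was left out: without culture 41, 3 BMP genes fell and none rose, 2 Wnt genes rose and 2 fell, and 1 Notch gene rose. Of 35 tested BMP genes, 3 rose and 6 fell in brainstem cultures, against 5.93% and 4.13% of all genes. Besides the ligand Bmp4, the inhibitors Fst and Smad7 fell, and the targets Id1 (-2.48, SE 0.25), Id3 (-1.42, SE 0.2) and Id4 (-0.96, SE 0.22) fell too, while the ligand Bmp7 (0.88, SE 0.14), the receptor Acvr1 and the target Msx1 rose. Id1 averaged 1.88 ± 0.874 CPM in brainstem and 9.99 ± 1.09 CPM in telencephalon cultures. Of 50 tested Wnt genes, 7 rose and 4 fell, against the same shares. The receptors Lgr5 (2.54, SE 0.18) and Ror2 (2.64, SE 0.23) and the ligand Wnt7b (1.04, SE 0.13) rose. Lgr5 measured 34.2, 30.6 and 25 CPM in brainstem cultures and 5.69, 6.7 and 3.61 CPM in telencephalon cultures. Of 12 inhibitors, Rnf43 (1.29, SE 0.2), Nkd1 (0.86, SE 0.16) and Sfrp4 (1.2, SE 0.28) rose and Sfrp1 (-1.96, SE 0.27) fell. The receptor Adgra2 rose too, and the receptor Fzd1 and the transducer Daam2 (-2.69, SE 0.28) fell. Of 30 tested Notch genes, 3 rose and 1 fell, against 5.93% and 4.13% of all genes, and Notch1 averaged 236 ± 37.1 CPM in brainstem and 125 ± 21.5 CPM in telencephalon cultures (0.93, SE 0.19, adjusted p 0.0364).

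Of 38 tested growth factor receptor and feedback genes, 7 rose and 1 fell. Ntrk3, the neurotrophin-3 receptor, averaged 106 ± 19.3 CPM in brainstem and 38.9 ± 13.6 CPM in telencephalon cultures (1.52, SE 0.24, adjusted p 0.0221). Erbb2, a neuregulin co-receptor, fell (-4.42, SE 0.48), and was low in both regions, with at most 0.0923 CPM in a brainstem culture and at most 1.54 CPM in a telencephalon culture. Of 32 tested potassium and sodium channel genes, 11 rose and 1 fell (median 0.68), against 5.93% and 4.13% of all genes. Kcnip3, a channel-interacting protein, measured 276, 200 and 218 CPM in brainstem cultures and 114, 106 and 60.4 CPM in telencephalon cultures (1.36, SE 0.2, adjusted p 0.0193). The number of channel genes that rose was 7 without culture 38 and 5 without 41 or 42. Of 33 tested glutamate and GABA receptor genes, 7 rose and 2 fell, and without culture 41 the number that rose was 2. Without culture 41 or 42, 4 growth factor receptor genes rose. The guidance genes split as well: 9 of 37 rose and 5 fell, with the netrin gene Ntn1 (1.56, SE 0.15) and the receptors Robo1 (1.54, SE 0.34) and Robo2 (1.5, SE 0.24) rising and Ephb1 (-1.71, SE 0.17) and Epha4 (-1.27, SE 0.14) falling. The number of guidance genes that rose was 2 without culture 38 and 3 without 41 or 42. Of 36 collagen and matrix genes, 9 fell and 3 rose, or 6 and none without culture 41. Of 18 immediate early genes, which respond within minutes to stimuli, 4 rose (Egr1, Fos, Jun and Ier2) and none fell. Egr1 measured 44.5, 45.2 and 88 CPM in brainstem cultures and 17.3, 22.2 and 24.1 CPM in telencephalon cultures (1.43, SE 0.19, adjusted p 0.0154). Without culture 42 the number of immediate early genes that rose was 1. None of 13 mitochondrially encoded genes passed, and without culture 38, 1 rose and 3 fell.

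Astrocyte, neuron and vascular markers differed in part between regions, and none of the 2 microglial, 5 ependymal and 8 Schwann cell markers tested passed. Of 16 tested astrocyte markers, 9 fell in brainstem cultures, 1 rose and 6 did not pass (median -1.32). Gfap, the astrocyte filament gene, measured 10.7, 6.67 and 13.7 CPM in brainstem cultures and 84.6, 77 and 305 CPM in telencephalon cultures (-3.65, SE 0.32, adjusted p 0.00866). Aqp4 (ENSMUSG00000024411.10, chromosome 18, 15389496 to 15410982), the astrocyte water channel, measured 0, 0.222 and 0.907 CPM in brainstem cultures and 8.35, 10.1 and 64.2 CPM in telencephalon cultures (-6.45, SE 0.67, adjusted p 0.00954). For both genes telencephalon culture 42, the culture highest in Mbp, was also highest. Slc1a2, a glutamate transporter gene, went the other way: it measured 226, 196 and 228 CPM in brainstem cultures and 28.7, 37.4 and 40.7 CPM in telencephalon cultures (2.63, SE 0.18, adjusted p 0.00478). Summed over the 5 defining astrocyte markers, wells held 173 to 308 CPM in brainstem and 108 to 512 CPM in telencephalon, so the sum overlapped while its members split. Slc1a3 did not differ beyond its spread (-0.03, SE 0.25, adjusted p 0.945).
Of 14 tested neuron markers, 4 rose (Dcx, Gap43, Elavl4 and Gad1) and none fell, and the 5 defining neuron markers summed to 37.2 to 55.6 CPM in brainstem and 31.7 to 50.9 CPM in telencephalon wells. Of 11 tested vascular and fibroblast markers, 3 fell (Acta2, Col3a1 and Tagln), and the 6 defining markers summed to 0.278 to 0.633 CPM in brainstem and 2 to 5.42 CPM in telencephalon wells, with Cldn5 at 0 in every brainstem well. Leaving out any culture left 2 neuron markers that rose. The part of these cells in the regional differences was not tested.

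Syt13, a synaptotagmin, measured 16, 6.64 and 10.4 CPM in brainstem cultures and 0.418, 0.556 and 0.363 CPM in telencephalon cultures (4.57, SE 0.39, adjusted p 0.00811). Tenm2, a teneurin adhesion protein, averaged 19.7 ± 4.96 CPM in brainstem and 1.02 ± 0.479 CPM in telencephalon cultures (4.35, SE 0.43, adjusted p 0.00938). Both rose, and the rule that named them required that the culture values not overlap. Lpar4, a lysophosphatidic acid receptor, measured 0.786, 0.711 and 1.08 CPM in brainstem cultures and 13.4, 15.1 and 11.6 CPM in telencephalon cultures (-3.96, SE 0.26, adjusted p 0.00478). A2m, a protease inhibitor (-4.88, SE 0.19), Serpinh1, a collagen chaperone (-4.07, SE 0.37), and the matrix gene Fbln2 (-3.49, SE 0.23) fell as well. Ddc, an enzyme of dopamine and serotonin synthesis, measured 0.605, 2.78 and 2.12 CPM in brainstem cultures and 4.14, 9.74 and 89.2 CPM in telencephalon cultures (-3.27, SE 0.72, adjusted p 0.0429, or 0.0871 without culture 38 and 0.0669 without the telencephalon well of passage 4). Among the most abundant genes, Dclk1 (1.72, SE 0.19) and the metalloprotease Mmp16 (1.62, SE 0.16) rose, and Rasgef1b (-2.23, SE 0.24) and the ubiquitin ligase gene March8 (-1.94, SE 0.2) fell. March8 measured 140, 208 and 243 CPM in brainstem cultures and 478, 670 and 1281 CPM in telencephalon cultures.

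**Figure D3:**
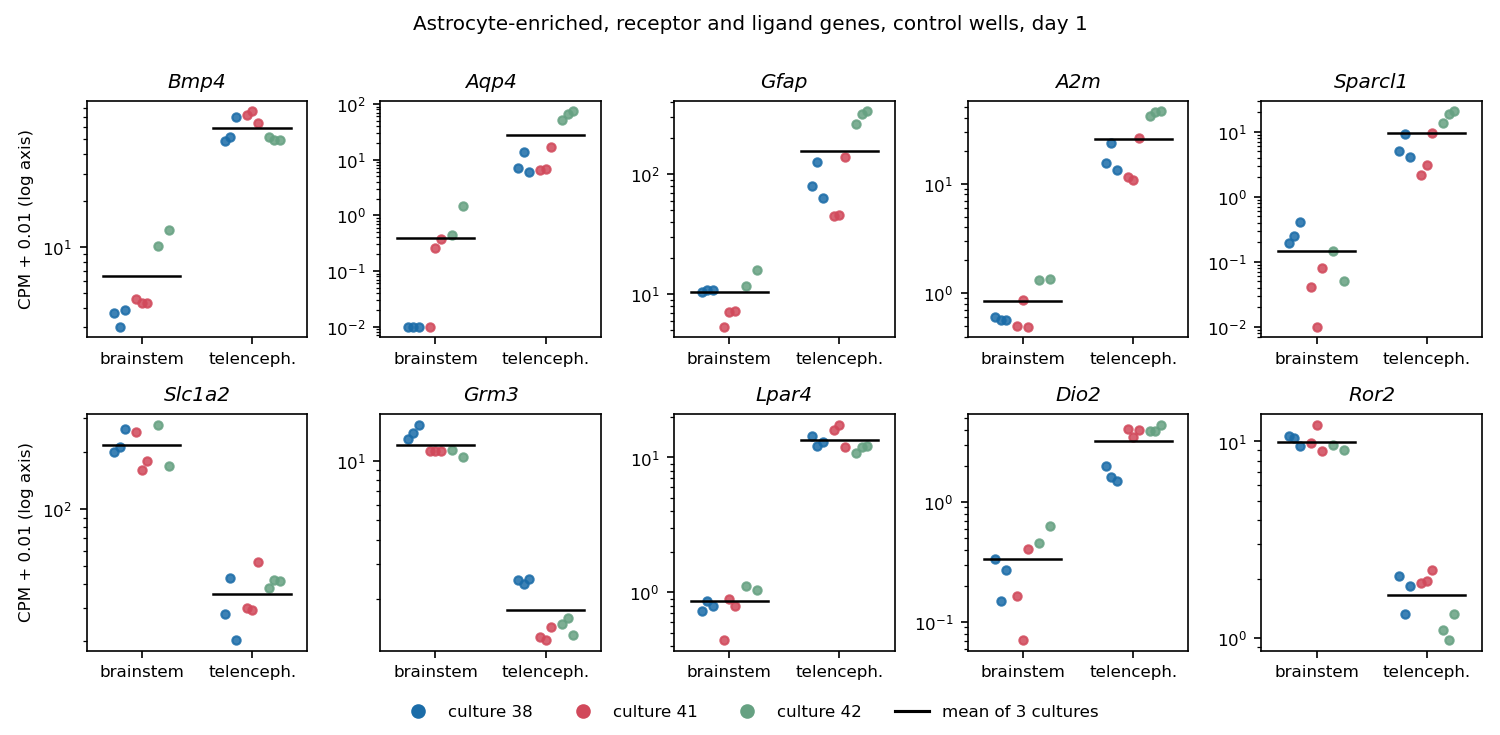
Level of 10 astrocyte-enriched, receptor and ligand genes in each control well at day 1, as CPM plus 0.01 on log axes, with brainstem wells on the left and telencephalon wells on the right of each panel. Points are wells coloured by culture and bars are means of the 3 cultures. Slc1a2, Grm3 and Ror2 sat higher and the other 7 genes lower in brainstem cultures, without overlap of the culture values. The naming rule required this of all but Grm3, Dio2 and Ror2.

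**Figure D4:**
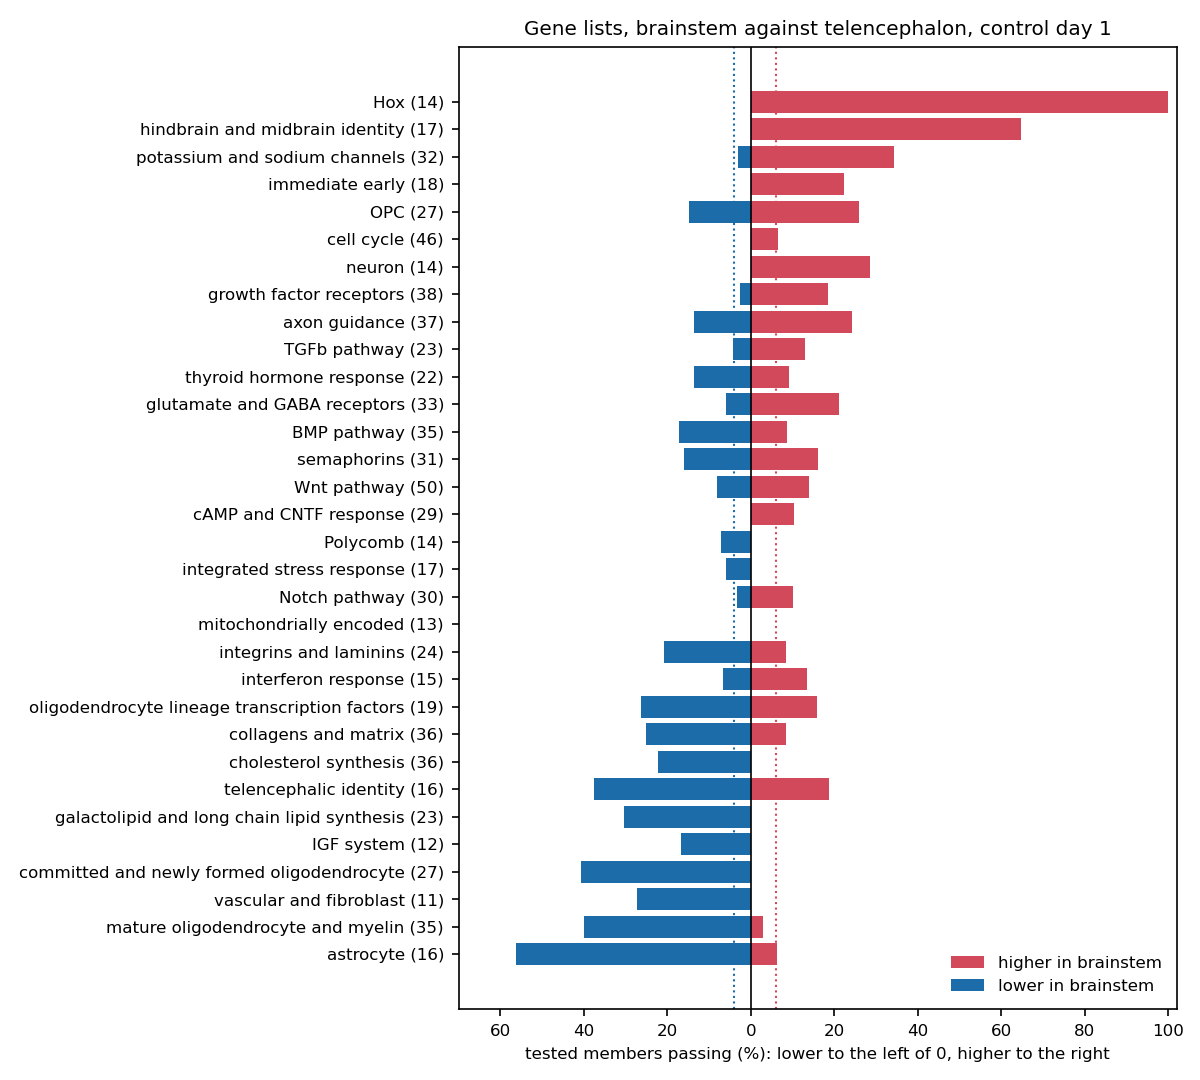
Share of tested members that passed as higher in brainstem (red, right of 0) or lower in brainstem (blue, left of 0) for each gene list with at least 10 tested members, in order of median log2 fold change, with the number tested in brackets. Dotted lines mark the shares over all genes, 5.93% higher and 4.13% lower. The direction of the Hox genes was fixed by the filter on low counts, and the called members of the lists of committed and mature oligodendrocytes and astrocytes lay mostly on the left.

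The regional difference at day 1 was set against that at day 0, in proliferation medium, and at day 2. Passage changed with day in these cultures. Brainstem culture 38 was at passage 5 at days 0 and 2 and at passage 7 at day 1. Telencephalon culture 38 was at passage 2 at days 0 and 2 and at passage 3 at day 1. The part of passage in the differences between days was not tested. Of 20387 genes tested, 8 had a difference at day 1 that differed from that at day 0 (0.0392%). The difference shifted towards brainstem for 2 (0.00981%) and towards telencephalon for 6 (0.0294%). These calls depended on the fit: the number was 0 without culture 42 and 0 without the culture term, 9 without culture 41 and 132 without culture 38. Plcg2, a phospholipase gene, averaged 5.54 CPM at day 0 and 9.69 CPM at day 1 in brainstem cultures, against 5.42 and 69.5 CPM in telencephalon cultures (difference -2.85, SE 0.23, adjusted p 0.0133). Pim3, a kinase gene, averaged 17.5 and 55 CPM in brainstem cultures, against 18.9 and 158.5 CPM in telencephalon cultures (difference -1.42, adjusted p 0.0388). Slc24a2, an ion exchanger (-2.36), Fhl2 (-3.35), Cnksr3 (-1.75) and the olfactory receptor gene Olfr279 (-4.21) moved the same way, and Fam69c (1.66) and AI593442 (1.96) the other way.
The genes described above moved between days without passing this test. Mbp averaged 94.5, 105, 4522 and 14910 CPM at days 0, 1, 2 and 5 in brainstem cultures, against 146.5, 1482, 6330 and 14420 CPM in telencephalon cultures (day 1 minus day 0 difference -4.36, SE 0.68, adjusted p 0.0814). That difference comes from a fit that compares days within each culture, so it need not equal the one taken from these means. Mag averaged 21.4, 57.9, 1086 and 4481 CPM in brainstem cultures, against 41.2, 385, 1499 and 4369 CPM in telencephalon cultures. The culture values of both genes overlapped between regions at day 5. Bmp4 averaged 0.36, 6.46, 3.74 and 0.704 CPM in brainstem cultures, against 2.98, 59.4, 26.2 and 4.34 CPM in telencephalon cultures. It peaked at day 1 in both regions.
Against day 2, 0 of 20020 genes (0%) passed by edgeR (smallest adjusted p 0.14), with 3482 at an unadjusted p under 0.05. Against the regional difference in K27M cells at day 1, 0 of 20468 (0%) passed (smallest adjusted p 0.117), with 3361 at an unadjusted p under 0.05. About 5% of genes fall under that unadjusted level when nothing differs. Fits on wells called 4454 and 7074, but they take wells that share a culture's cells as replicates, so no result is read from those counts. The K27M comparison with the smallest p was Lhx2, which averaged 6.23 CPM in control brainstem, 5.65 CPM in control telencephalon, 0.277 CPM in K27M brainstem and 10.8 CPM in K27M telencephalon cultures (control minus K27M difference 5.58, SE 0.47, adjusted p 0.117). Egr1, an immediate early gene, followed (4.42, SE 0.4, adjusted p 0.117). Passage differed between genotypes too. At day 1 brainstem cultures 38, 41 and 42 were at passage 6, 2 and 5 in K27M and at 7, 5 and 6 in control. The part of passage in the K27M comparison was not tested.

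**Figure D5:**
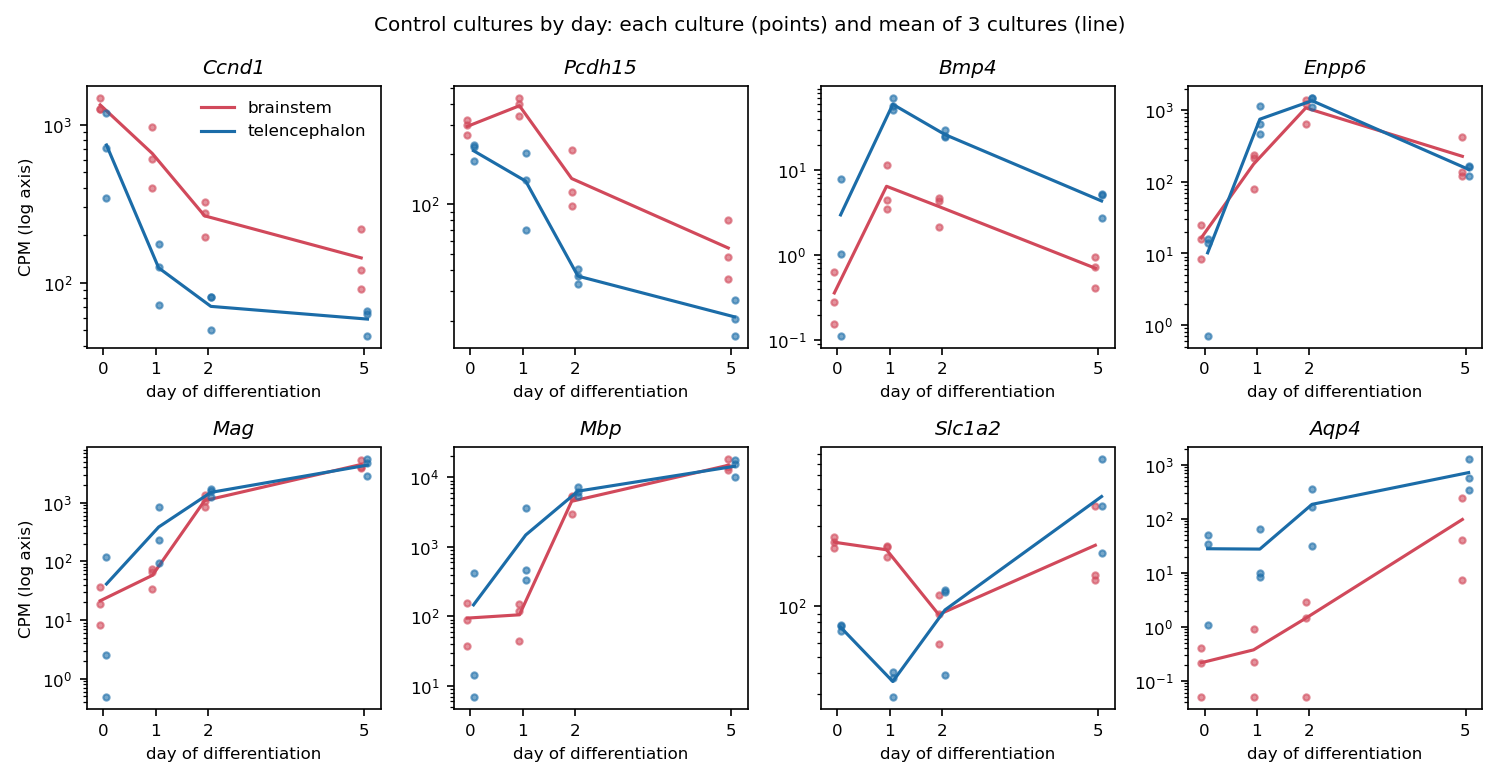
Level of 8 genes in control cultures at days 0, 1, 2 and 5 of differentiation, as CPM on log axes, with brainstem in red and telencephalon in blue. Points are cultures (values under 0.05 CPM are drawn at 0.05) and lines join the means of 3 cultures. Mag and Mbp were apart at day 1 and overlapped at day 5, Bmp4 peaked at day 1 in both regions, and Ccnd1 and Pcdh15 were higher in brainstem cultures at each day by their means.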

How the data were processed

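RNA was extracted from wells of immunopanned cells, and rRNA-depleted stranded libraries were sequenced as read pairs. The authors quantified each library with Salmon 1.10.1 against the mouse transcriptome (mm10) and deposited, for each transcript, an expected count (the estimated count of read pairs) and its TPM (abundance per length and depth), corrected for sequence and GC bias. TPM carries no depth and was not tested. Here 89 libraries were read. Of 141084 transcripts, 139821 were matched to GENCODE M21 genes, and expected counts were summed over 54127 genes, then over the wells of a culture, and rounded. CPM are read pairs on the TMM scale of these 89 libraries.

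Regions were compared on 6 culture sums with edgeR 4.0.16 (limma 3.58.1, R 4.3.3), quasi-likelihood test, TMM scaling, filterByExpr, and culture number and region as terms. P-values were adjusted by the Benjamini-Hochberg method over all genes, at 0.05, and SE is the fold change over the root of F. With 3 cultures per region, p-values measure the spread between cultures. Genes under 4 counts in a region were given as a bound from a floor of 3 counts or a ratio with an exact 95% interval, for counting error only. Alternatives used DESeq2 1.42.0, other filters and scalings, wells and left-out cultures. The code was tested on simulated data.

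Genes named were the 10 highest and 10 lowest fold changes that passed, were protein-coding, had at least 5 CPM in the higher region and separated the cultures; the 6 highest and 6 lowest at 200 CPM or more; up to 4 per direction and list by smallest p, with members each list is known for; the genes displayed by the study, H3f3a and Prm1; and the 5 smallest p per direction of each difference of differences. A few genes that this rule names are not reported here. Members and lists were chosen with earlier results of these data known.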

Additional observations from a re-analysis of the deposited data

Results flagged for a closer look

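A single well was apart from the rest of its region in 6 of 96 groups of wells examined. Chance alone marks about 1 in 20 when wells are independent. Wells of a culture share its cells, so that rate is only a rough guide here. Telencephalon culture 38 well 2 had 8.37% mitochondrial ribosomal RNA, with the next telencephalon well at 4.29%, and 0.509% nuclear ribosomal RNA, with the next at 0.204%. Brainstem culture 42 well 1 had 1.98% nuclear ribosomal RNA, with the next brainstem well at 0.176%. Hoxa2 was at 0.0232 CPM in telencephalon culture 41 well 3 and at 0 in the other telencephalon wells. That well, at passage 4, was also lowest in Mki67, with 159.2 CPM against 283.8 CPM in the next. Prm1, a sperm protamine gene, was at 0.019 CPM in telencephalon culture 42 well 2 and at 0 in the other telencephalon wells. The Hoxa2 and Prm1 values lie under the floor of 3 counts in a well, 0.0513 to 0.0932 CPM, so nothing is read from them.

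The regional difference at day 1 differed from that at day 0 for 8 genes by edgeR's test of the difference. On the log2 scale it shifted by -2.36 for Slc24a2, -2.85 for Plcg2 and -3.35 for Fhl2 (adjusted p 0.013 each). It shifted by -4.21 for Olfr279 and -1.42 for Pim3 (adjusted p 0.039 each). It shifted by 1.66 for Fam69c (0.043), -1.75 for Cnksr3 (0.044) and 1.96 for AI593442 (0.044). No gene passed when the samples carried no culture term or when culture 42 was left out. Passage also differed between these days.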

How the results depend on the processing

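Numbers of genes higher and lower in brainstem were 2148 and 1511 with no filter on low counts, 2065 and 1737 by DESeq2 on culture sums, 4581 and 4482 on wells with culture number as a replicate block, 3452 and 2950 by DESeq2 on wells with a fold threshold of 1.1, 2395 and 2473 with the spread shared over days, and 579 and 506 on wells with passage as a term. Leaving out a culture gave 358 to 610 higher and 248 to 482 lower. Among the genes called, none was called in the opposite direction under these alternatives. As alternatives chosen after seeing the data, leaving out the first brainstem well of culture 42 gave 566 and 546, and protein-coding genes alone gave 613 and 455. The cause of these changes was not tested.

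With no replicate block the counts were 1739 higher and 877 lower. Of the 144 genes named from the lists by smallest p that passed, 120 still did without the block. Without culture 41 it was 82 of 144, and on wells with passage as a term it was 80 of 144. The culture term was used because the study's own model had it. Deviations of same-numbered cultures correlated at -0.000866 (38), -0.0573 (41) and 0.151 (42), and the sources do not say that a number marks a shared litter, so no pairing of the samples is claimed from the term. Genes whose regional difference differed from day 0 numbered 4770 on wells with a replicate block, 0 without the block, 15 with DESeq2 size factors and 0 to 132 with a culture left out. Against day 2 the numbers were 4454 on wells with a block and 0 to 28 with a culture left out. Against K27M they were 7074 on wells with a block and 1 without the block. All fits on wells take wells that share a culture's cells as replicates, so their counts do not rest on the spread between cultures.

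Ccnb1 turned to 0.044 with no replicate block, 0.019 on wells with the block, 0.003 by DESeq2 on wells and 2.10 on wells with passage, and ran between -0.84 and 0.55 with a culture left out. Gpr17 turned to 0.30 on wells with passage. With passage as a term Hoxa2, Hoxa7, Hoxd8, Ddc, Slc1a2, Ccnd1, Dclk1, Pcdh15, Kcnip3 and Mbp no longer passed, and Mki67 did. Passage does not overlap between regions, so this fit extrapolates.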

Other observations

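Caudal Hox genes varied within the brainstem over the other days of the series. In brainstem culture 38 Hoxa7 measured 5.14, 26.1, 3.78 and 1.85 CPM at days 0, 1, 2 and 5, when the wells were at passages 5, 7, 5 and 4. Hoxd8 measured 1.25, 13.0, 1.88 and 1.89 CPM in the same samples. Hoxa2 was steadier there, at 7.64, 7.40, 6.45 and 6.02 CPM. In brainstem culture 41, at passages 4, 5, 4 and 5, Hoxa7 measured 1.67, 1.12, 0.765 and 0.637 CPM. In brainstem culture 42 Hoxa7 measured 15.8, 15.2, 10.0 and 6.46 CPM at days 0, 1, 2 and 5, with wells at passages 3 and 8 at day 0 and at passages 6, 8 and 7 on the later days. Hoxd8 measured 6.96, 8.87, 13.8 and 9.9 CPM in the same samples of culture 42. In brainstem culture 41 Hoxd8 measured 0.171, 0.453, 0.36 and 0.757 CPM at days 0, 1, 2 and 5. The part of passage or of the tissue taken was not tested.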
